A study of Danio rerio with 15 samples.

Results

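The genes chrna1, chrne and chrnb3a encode subunits of nicotinic acetylcholine receptors, and they were followed here across sorted spinal neurons and trunk cells of the zebrafish embryo. Every probe set whose platform gene symbol was 1 of these 3 names was taken, which gave 3 probe sets of 15502 tested, 1 for each of 3 genes among 8793 genes with a symbol. Each gene is thus known here from a single probe set. Of all nicotinic subunit genes, 5 had a named probe set on the array, and the other two were chrna7a and chrnb3b.

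Embryos of all groups were raised at 28.5 °C up to 10 hours after fertilization, then at 32 °C up to 27 hours, and cells of the dissected spinal cord region were dissociated and sorted. The V1 group (6 arrays) held interneurons, which the labels also call CiA, sorted by GFP from the line Tg(pax2a:GFP) after removal of the pronephros region. The all-neuron group (5 arrays) held spinal neurons sorted by EGFP from Tg(elavl3:EGFP), a line whose reporter follows a gene of postmitotic neurons. The trunk group (4 arrays) held sorted cells of spinal cord and other tissues from embryos for which no transgenic line was used. Each group is meant to be nested in the next, because V1 cells belong to the spinal neurons and spinal neurons belong to the trunk cells. However, pax2a is known to be active outside V1 cells too. The V1 arrays were also brighter than the all-neuron arrays for blood, vessel, neural crest and pigment cell markers.

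Nicotinic receptors are ion channels that open when acetylcholine binds, and each channel is a ring of subunits. The receptor of skeletal muscle sits under the motor nerve ending and is built from alpha1, beta1 and delta subunits with either gamma or epsilon. In mammals the gamma subunit of fetal muscle gives way to epsilon as the endplate matures. chrna1 encodes the alpha1 subunit, which forms most of the binding site, and zebrafish nic1 mutants, in which chrna1 is disrupted, cannot move their muscles. chrne encodes the epsilon subunit. chrnb3a encodes a beta3 subunit, which in mammals is an accessory subunit that joins neuronal receptors with alpha6 or alpha4 and beta2.

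Values are deposited RMA values on the log2 scale, with a median over all tested probe sets and arrays of 5.52. No detection call was used, so no level is known to lie above background, and no fold is given for a difference from a group whose mean lies below that median. The trunk arrays of chrnb3a, to which its folds refer, read 5.87 to 6.21, a little above it. Precision rests on 4 to 6 arrays a group. Across probe sets, Pearson's r between arrays was 0.979 to 0.994 among V1 interneurons, 0.980 to 0.997 among all neurons and 0.980 to 0.992 for trunk cells, and 0 pairs of arrays held identical values. A control probe set, AFFX-Dr-U43284-1_s_at, whose target the files do not name, read 4.98 to 5.59 in V1 arrays and 10.2 to 10.8 in all-neuron arrays. In trunk arrays it read 8.02 and 8.16 on arrays 1 and 2, between the sorted groups, but 5.63 and 5.71 on arrays 3 and 4. Of 13 V1 markers, 11 were higher and 1 lower in V1 than in trunk arrays, beside 22% and 18% of all tested probe sets. Against all-neuron arrays 7 were higher and 2 lower in V1, beside 12.7% and 9.3%. Both counts of higher markers include pax2a, whose reporter was used to sort the V1 cells, so its rise tests nothing beyond the sort. Of the same 13 markers, 10 were higher and 1 lower in all-neuron than in trunk arrays, beside 20.8% and 20.6% of all tested probe sets. The counts against trunk are thus not particular to V1 arrays. Of 20 postmitotic neuron markers, 18 were higher in V1 than in trunk arrays, beside 22% of all tested probe sets. In all-neuron arrays 19 were higher than in trunk arrays, beside 20.8%. Red blood cell and vessel markers had list means of 7.32 to 8.65 in V1 interneurons, 4.47 to 4.67 in all spinal neurons and 7.54 to 8.17 in trunk cells. Neural crest and pigment cell markers had list means of 8.30 to 9.28 in V1 interneurons, 6.00 to 6.63 in all spinal neurons and 7.33 to 8.03 in trunk cells. In both lists 9 of 9 were higher in V1 than in all-neuron arrays, beside 12.7% of all tested probe sets. Against trunk, 0 of 9 blood and vessel markers and 8 of 9 crest and pigment markers were higher in V1, beside 22%. The part of other cell types in the V1 arrays was not tested.

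The subunit genes of the muscle receptor were brightest in trunk cells, and the neuronal subunit gene was brightest in all spinal neurons. In V1 arrays chrna1 and chrne both ranked below the middle of the array, and in trunk arrays both ranked high. chrnb3a ran the other way, with every V1 and every all-neuron array above every trunk array. The all-neuron group was split for the muscle genes, with arrays 1, 2 and 3 well above arrays 4 and 5.

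**Figure D1:**
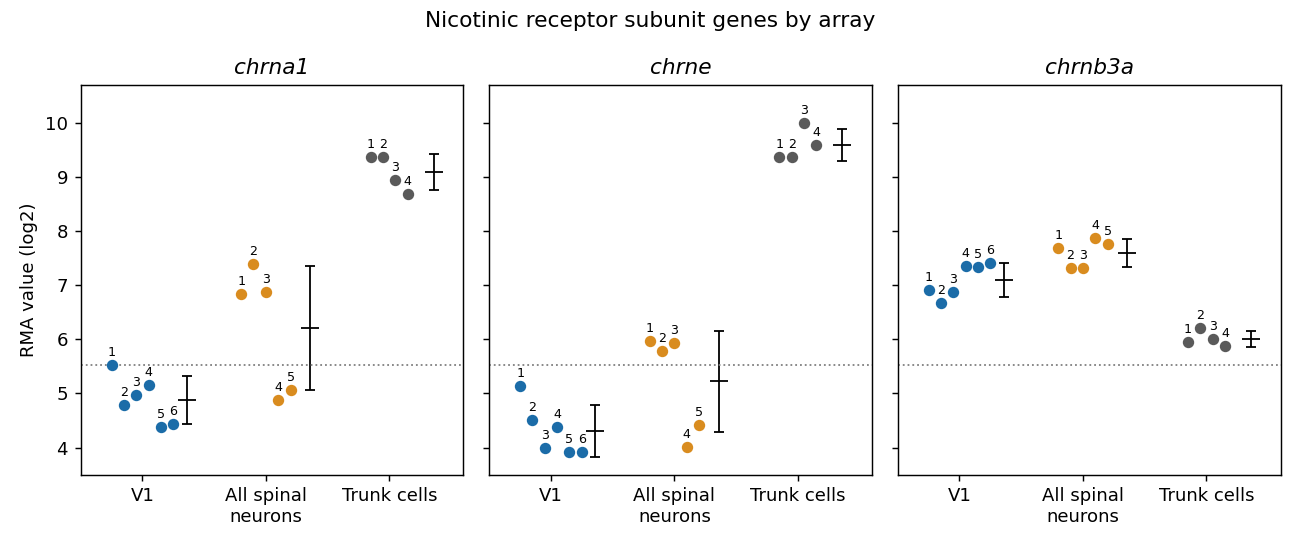
RMA values (log2, vertical axis) of chrna1, chrne and chrnb3a on each array of V1 interneurons, all spinal neurons and trunk cells, with the replicate number beside each point, the mean and SD as a bar, and the median of all values (5.52) as a dotted line. For chrna1 and chrne the 4 trunk arrays sit above all others and all-neuron arrays 4 and 5 sit among the V1 arrays, whereas for chrnb3a the trunk arrays sit lowest.

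For chrna1, the V1 arrays ranged from 4.38 to 5.53 with a median of 4.88. The all-neuron arrays 1 to 5 read 6.83, 7.39, 6.88, 4.87 and 5.07, and the trunk arrays 1 to 4 read 9.37, 9.36, 8.94 and 8.68. Both sorted groups lay below every trunk array, while all-neuron arrays 4 and 5 fell inside the V1 range. In terms of rank on the array, chrna1 stood at percentile 31.9 to 49.8 in V1 interneurons, 40.03 to 75.0 in all spinal neurons and 88.9 to 93.9 in trunk cells.

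For chrne, the V1 arrays ranged from 3.91 to 5.14 with a median of 4.19. The all-neuron arrays 1 to 5 read 5.97, 5.77, 5.93, 4.01 and 4.42, and the trunk arrays 1 to 4 read 9.36, 9.38, 10.00 and 9.59. The trunk arrays were apart from all others, and the all-neuron arrays divided in the same way as for chrna1. Its percentile on the array was 22.8 to 44.0 in V1 interneurons, 23.8 to 56.5 in all spinal neurons and 93.1 to 96.3 in trunk cells.

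For chrnb3a, the V1 arrays ranged from 6.68 to 7.41 with a median of 7.12. The all-neuron arrays 1 to 5 read 7.68, 7.31, 7.31, 7.87 and 7.76, and the trunk arrays 1 to 4 read 5.95, 6.21, 6.01 and 5.87. V1 and all-neuron arrays overlapped, since V1 arrays 4, 5 and 6 (7.35, 7.33 and 7.41) were above all-neuron arrays 2 and 3. Its percentile on the array was 64.7 to 74.4 in V1 interneurons, 74.0 to 80.0 in all spinal neurons and 54.6 to 60.9 in trunk cells.

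The comparison of V1 interneurons with trunk cells sets the sorted V1 arrays against a mixture of spinal cord and other tissues, which holds such interneurons too. Both muscle subunit genes fell in V1 arrays and chrnb3a rose. chrne averaged 4.31 ± 0.48 in V1 arrays (SD, n = 6) and 9.58 ± 0.30 in trunk arrays (n = 4). Its log2 difference was −5.27 (SE 0.37, adjusted p = 4.04e-08 by limma with Benjamini-Hochberg adjustment over all tested probe sets), which ranked 4 of 15502 from the most negative. chrna1 averaged 4.88 ± 0.44 in V1 arrays and 9.09 ± 0.34 in trunk arrays, a difference of −4.21 (SE 0.43, limma adjusted p = 1.31e-06) that ranked 40. chrnb3a averaged 7.09 ± 0.31 in V1 interneurons and 6.01 ± 0.15 in trunk arrays. It was 2.12-fold higher in V1 (log2 difference 1.08, SE 0.16, limma adjusted p = 5.12e-05). All 3 genes passed the threshold of adjusted p = 0.05 and showed no overlap between these groups. Over all tested probe sets 40% passed, 22% higher and 18% lower in V1, and 26.8% showed no overlap, 15.3% higher and 11.5% lower.

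Between all spinal neurons and trunk cells the same directions were measured, against the same 4 trunk arrays. chrne averaged 5.22 ± 0.93 in all-neuron arrays (SD, n = 5) and 9.58 ± 0.30 in trunk arrays (n = 4), a log2 difference of −4.36 (SE 0.38, limma adjusted p = 2.77e-07) that ranked 9 of 15502 from the most negative. chrna1 averaged 6.21 ± 1.15 in all-neuron arrays and 9.09 ± 0.34 in trunk arrays, with a difference of −2.88 (SE 0.44, limma adjusted p = 6.47e-05) and a rank of 87. chrnb3a averaged 7.59 ± 0.26 in all-neuron arrays and 6.01 ± 0.15 in trunk arrays, and was 2.98-fold higher in all neurons (log2 difference 1.58, SE 0.16, limma adjusted p = 1.46e-06). Here too all 3 genes passed and none overlapped, while over all tested probe sets 41.4% passed, 20.8% higher and 20.6% lower in all neurons, and 36.7% showed no overlap, 18.7% higher and 18.1% lower. All-neuron arrays 1, 2 and 3 were the brightest of their group for chrna1 and chrne. With them left out, the differences were −5.37 for chrne, −4.12 for chrna1 and 1.80 for chrnb3a. In these bulk samples, fewer cells of a type and less RNA per cell cannot be told apart.

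Whether V1 interneurons differ from spinal neurons at large is the remaining comparison, and the differences were smaller. chrna1 fell in V1 arrays, at 4.88 ± 0.44 (SD, n = 6) against 6.21 ± 1.15 in all-neuron arrays (n = 5), a log2 difference of −1.33 (SE 0.40, 95% interval −2.18 to −0.48, limma adjusted p = 0.0252). This error pools the spread of all 3 groups, trunk arrays included. With only the groups compared in the fit, the SE was 0.44 and the limma adjusted p was 0.0469, close to the threshold. chrnb3a also fell, at 7.09 ± 0.31 against 7.59 ± 0.26, and was 1.41-fold lower in V1 (log2 difference −0.49, SE 0.15, 95% interval −0.81 to −0.18, limma adjusted p = 0.0249). chrne did not pass, at 4.31 ± 0.48 in V1 and 5.22 ± 0.93 in all-neuron arrays, with a difference of −0.91 (SE 0.34, 95% interval −1.64 to −0.18, limma adjusted p = 0.071). All 3 overlapped between these groups, and 22% of all tested probe sets passed in this comparison, 12.7% higher and 9.3% lower in V1. Groups did not overlap for 13.5% of them, 8.04% higher and 5.46% lower in V1.

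The arrays that carried the chrna1 difference were all-neuron arrays 1, 2 and 3. They were the brightest of their group for chrna1 and chrne, so leaving them out had to lower the all-neuron means and tests nothing. Without these 3 arrays, chrna1 differed by −0.092 (SE 0.28, limma adjusted p = 0.862) and chrne by 0.094 (SE 0.29, limma adjusted p = 0.868). chrnb3a then differed by −0.72 (SE 0.19, limma adjusted p = 0.0171), more than with all arrays, and arrays 2 and 3 were its dimmest of that group. The calls of chrna1 and chrnb3a were also lost when some single arrays were left out. For chrna1 these were the all-neuron arrays 1, 2 and 3 and the V1 arrays 5 and 6, each left out on its own (differences −1.24 to −1.03). For chrnb3a they were the all-neuron arrays 1, 4 and 5 and the V1 arrays 1 and 2 (−0.47 to −0.41). With arrays weighted by their quality in limma, the chrnb3a difference was −0.29 (adjusted p = 0.123), and its call was lost as well.

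**Figure D2:**
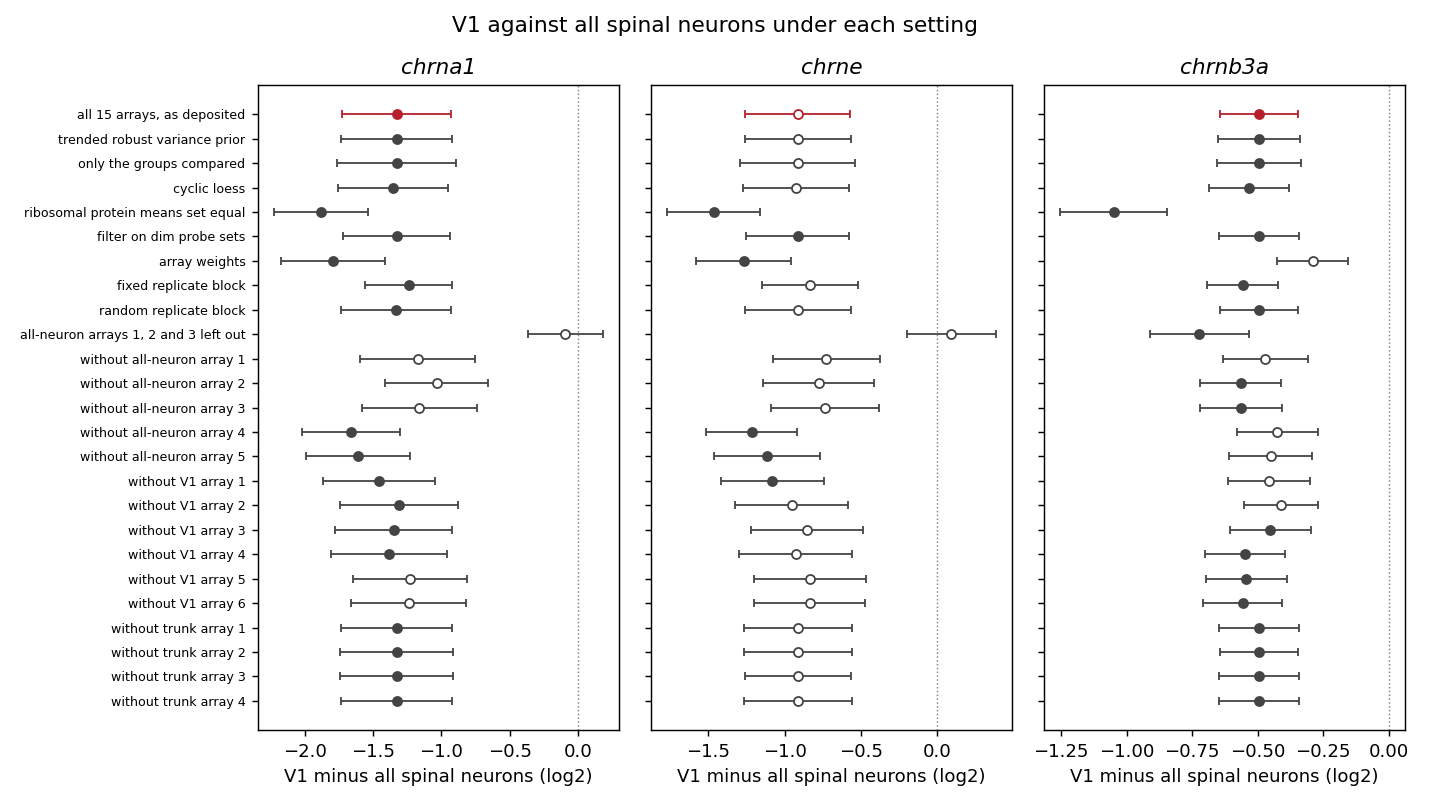
Log2 difference between V1 and all-neuron arrays (horizontal axis, scale differs by panel) of each receptor gene under every setting (vertical axis), with bars for the standard error, filled points where the limma adjusted p is under 0.05, and the fit of all 15 arrays as deposited in red. Leaving out all-neuron arrays 1, 2 and 3, the brightest of their group for chrna1 and chrne, brings those genes to −0.092 and 0.094. Both chrna1 and chrnb3a stay below 0 in every setting shown, and chrne rises above 0 only without those arrays.

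Skeletal muscle markers moved with chrna1 and chrne between the groups and in the split of the all-neuron arrays, but not with chrne among trunk arrays. The mean of 34 measured markers was 7.51, 6.75, 6.95, 7.10, 6.65 and 6.63 in V1 arrays 1 to 6. In all-neuron arrays 1 to 5 it was 8.76, 8.93, 8.74, 7.07 and 7.31, and in trunk arrays 1 to 4 it was 10.6, 10.6, 10.3 and 10.4. V1 array 1 was the brightest V1 array for the markers, for chrna1 (5.53) and for chrne (5.14). All-neuron arrays 4 and 5 were the dimmest of their group for the markers and for both genes. In trunk cells chrne ran the other way, brightest on array 3 (10.00), where the markers were lowest, and dimmer on arrays 1 and 2 (9.36 and 9.38). V1 array 3 was above V1 array 2 for the markers but below it for chrne (4.00 against 4.51). Of the 34 markers, 23 were lower and 0 higher in V1 than in all-neuron arrays (median −1.31, against −0.01 over all tested probe sets). Over all tested probe sets 9.3% were lower and 12.7% higher. The markers were led by the troponin gene tnni2a.4 (−2.37), the parvalbumin gene pvalb2 (−2.31), and the myosin light chain genes mylpfa (−2.29) and myl1 (−2.19). Against trunk, 32 of 34 were lower in V1 (median −4.00) and 32 of 34 in all neurons (median −2.59). Of all tested probe sets, 18% and 20.6% were lower in these comparisons. The values of chrna1 and chrne thus stand beside a marker list that moved the same way between groups. The part of muscle RNA in their differences was not tested.

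**Figure D3:**
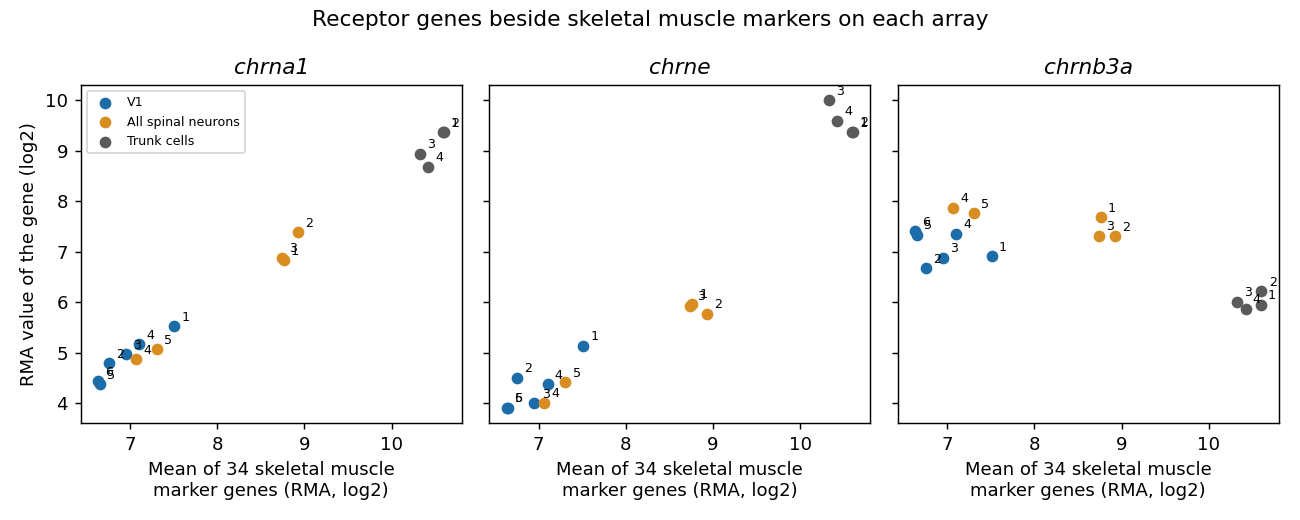
RMA value (log2, vertical axis) of each receptor gene on each array, set against the mean of 34 skeletal muscle marker genes on the same array (log2, horizontal axis), with replicate numbers beside the points and colours for V1, all-neuron and trunk arrays. Groups with brighter muscle markers are brighter for chrna1 and chrne, with all-neuron arrays 1, 2 and 3 lying between the V1 and trunk arrays. Among the trunk arrays chrne runs against the markers, and chrnb3a is lowest in the trunk arrays.

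Most measured genes of muscle formation and excitation were lower in both sorted groups than in trunk cells. Of 9 myogenic regulators, 8 fell in V1 against trunk (median −1.74), where 18% of all tested probe sets fell, and 8 in all neurons against trunk (median −1.37), where 20.6% did. These were led by the muscle determination gene myod1 (−2.75 and −2.03) and the differentiation gene myog (−2.72 and −2.84). Between V1 and all-neuron arrays 1 of 9 fell, the transcription factor gene mef2d (−0.62, limma adjusted p = 0.0158), a share near the 9.3% of all tested probe sets. All 3 measured genes of excitation-contraction coupling fell against trunk in both sorted groups. The calcium channel subunit gene cacng1a differed by −5.16 in V1 and −3.73 in all neurons. Between V1 and all neurons it differed by −1.43 (limma adjusted p = 0.0166), with overlapping groups. The other 2 measured genes of that list did not pass in this comparison.

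The proteins that hold and clear the muscle receptor's signal were read on 5 of 14 listed genes. rapsn, whose protein clusters the receptor at the synapse, averaged 4.33 ± 0.25 in V1 arrays (SD, n = 6), 4.44 ± 0.24 in all-neuron arrays (n = 5) and 5.61 ± 0.44 in trunk arrays (n = 4). It fell against trunk in V1 (−1.28, limma adjusted p = 4.28e-05) and in all neurons (−1.17, limma adjusted p = 1.12e-04), and its difference between V1 and all neurons was −0.11 (limma adjusted p = 0.714). musk, the receptor kinase that organizes the endplate, read 3.12 to 3.76 in V1 interneurons, 3.42 to 4.08 in all spinal neurons and 3.21 to 3.97 in trunk cells. ache, the enzyme that breaks down acetylcholine, read 3.33 to 4.08 in V1 interneurons, 3.59 to 4.43 in all spinal neurons and 3.57 to 4.03 in trunk cells. Neither ranked above percentile 32.5 on any array, and neither passed in any comparison. The membrane scaffold genes sntb1 and dag1 did not pass either, with differences between −0.35 and 0.23 in the 3 comparisons.

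Among neuronal subunit genes, chrnb3a was the one read above the median of all values. Its paralog chrnb3b averaged 4.67 ± 0.08 in V1 interneurons, 4.73 ± 0.10 in all spinal neurons and 4.82 ± 0.22 in trunk cells and passed in no comparison (differences −0.15 to −0.06). chrna7a, which encodes a subunit of alpha7-type receptors, averaged 3.59 ± 0.13 in V1 interneurons, 3.82 ± 0.18 in all spinal neurons and 3.90 ± 0.15 in trunk cells. It was lower in V1 than in trunk (−0.31, limma adjusted p = 0.026), a difference of signal near the bottom of the scale. The levels of these paralogs come from different probe sets and were not set against each other.

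slc18a3a, the vesicular acetylcholine transporter gene of cholinergic neurons such as motor neurons, ran in the same order as chrnb3a. It averaged 10.80 ± 0.18 in V1 interneurons, 11.48 ± 0.15 in all spinal neurons and 9.65 ± 0.23 in trunk cells, with no overlap between any pair of groups. Its difference was −0.68 between V1 and all neurons (SE 0.11, limma adjusted p = 3.41e-04), 1.14 between V1 and trunk (limma adjusted p = 1.57e-06) and 1.83 between all neurons and trunk (limma adjusted p = 3.34e-08). ric3b, a chaperone gene for nicotinic receptor assembly, averaged 7.35 ± 0.17 in V1 interneurons, 7.52 ± 0.21 in all spinal neurons and 6.41 ± 0.36 in trunk cells. It rose against trunk in V1 (0.94, limma adjusted p = 1.14e-04) and in all neurons (1.11, limma adjusted p = 2.89e-05). unc50, whose nematode counterpart is needed for nicotinic receptor transport, also rose against trunk (0.53 in V1 and 0.48 in all neurons). Its groups overlapped in both comparisons, because trunk array 1 read 7.53 while the other trunk arrays read 6.93. The muscarinic receptor gene chrm2a was lower in V1 than in trunk (−0.36, limma adjusted p = 2.61e-03) and did not pass in the other comparisons. Its means of 4.96 in V1, 5.15 in all neurons and 5.32 in trunk lay below the median of all values.

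Markers of motor and sensory neurons also differed between the sorted groups. Motor neuron markers had list means of 6.96 to 7.32 in V1 interneurons, 7.27 to 7.45 in all spinal neurons and 6.30 to 6.58 in trunk cells. Of 8 measured, 4 fell and 1 rose in V1 against all neurons, beside 9.3% and 12.7% of all tested probe sets. The largest falls were those of etv4 (−1.42) and isl2a, a LIM homeobox gene of motor and sensory neurons (−1.12). The gene that rose was aldh1a2 (1.29, limma adjusted p = 0.0443), with overlapping groups. The genes isl1a and isl2a are also on the sensory list that follows, so the counts of these lists are not separate. Rohon-Beard and sensory neuron markers had list means of 6.34 to 6.75 in V1 interneurons, 7.22 to 7.75 in all spinal neurons and 5.86 to 6.16 in trunk cells. Of 12 measured, 7 fell and 0 rose in V1 against all neurons, beside the same shares of all tested probe sets. The sensory transcription factor gene runx3 fell by 3.02 on the log2 scale and tlx3b, a homeobox gene of sensory neurons, by 1.73. All-neuron arrays 4 and 5, where chrnb3a was brightest (7.87 and 7.76), also had the highest sensory list means (7.75 and 7.62). This was not particular to sensory markers. The same arrays were highest of their group for postmitotic neuron markers (10.46 and 10.36) and V1 markers (7.46 on each). Motor neuron markers were highest on all-neuron array 1 (7.45). The part of motor, sensory or any other neurons in the chrnb3a difference was not tested.

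The 7 lists of receptor and acetylcholine genes together held 21 measured genes of 104. Between V1 and all neurons 0 rose and 4 fell (chrna1, chrnb3a, slc18a3a and the glycine receptor gene glra4a), a share to be read against the 12.7% and 9.3% of all tested probe sets. Between V1 and trunk 6 rose and 6 fell of 21, where 22% and 18% of all tested probe sets did. Between all neurons and trunk 6 rose and 3 fell, beside 20.8% and 20.6% of all tested probe sets. Without chrna1, chrne and chrnb3a, the counts of 18 genes were 0 higher and 2 lower between V1 and all neurons, 5 and 4 between V1 and trunk, and 5 and 1 between all neurons and trunk. Read against those shares, the counts give no result about the lists as a whole. With the means of ribosomal protein genes set equal on every array, 20 of the 21 were lower in V1 than in all neurons. In that setting 11686 of all 15502 tested probe sets were called lower too, and the median of all probe sets moved to −0.56. The count is thus no result about these genes. Of the 18 genes other than chrna1, chrne and chrnb3a, 10 stayed below the median of all values in every group.

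**Figure D4:**
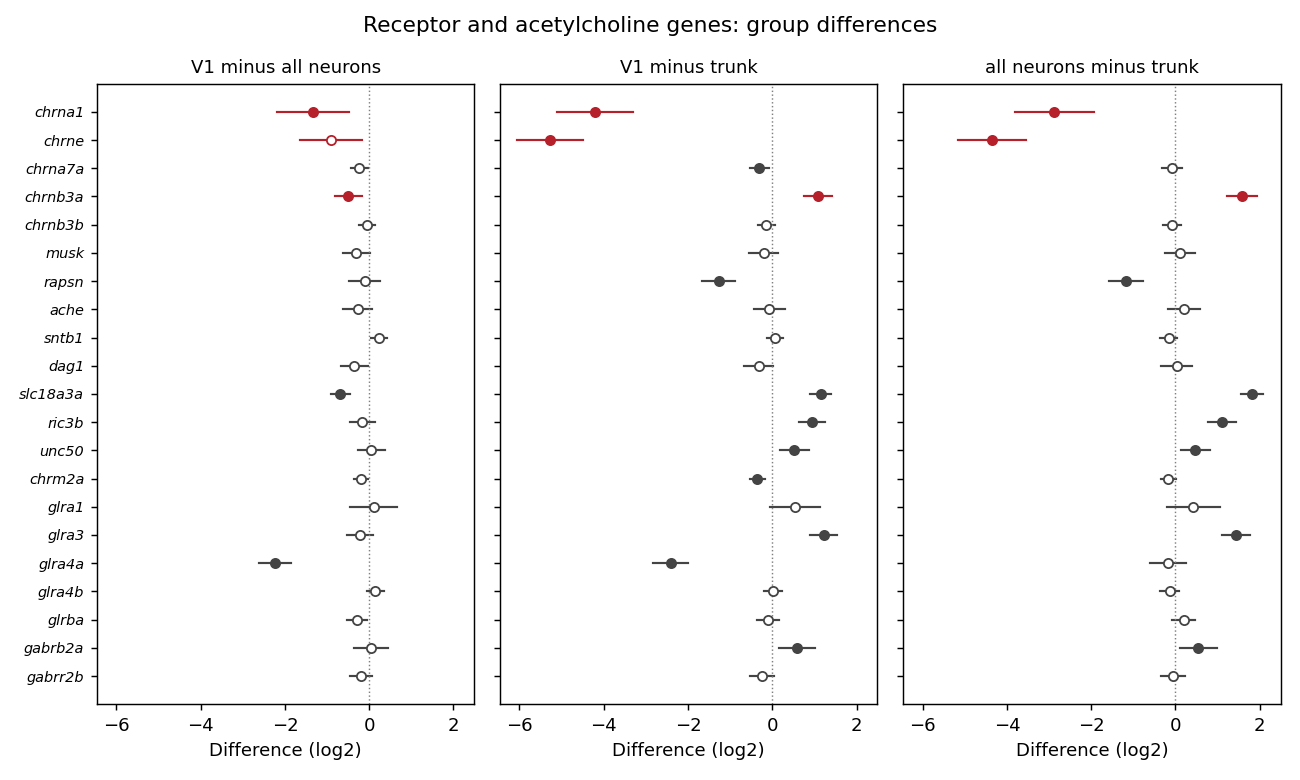
Log2 differences (horizontal axis) with 95% intervals of 21 receptor and acetylcholine genes (vertical axis) for V1 minus all neurons, V1 minus trunk and all neurons minus trunk, with filled points where the limma adjusted p is under 0.05 and chrna1, chrne and chrnb3a in red. Against trunk, chrna1 and chrne lie farthest to the left and chrnb3a lies to the right of 0.

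Other channels of the same superfamily were read on 7 of 33 listed genes. glra4a, a glycine receptor subunit gene, fell in V1 against all neurons (−2.24, limma adjusted p = 5.10e-07) and against trunk (−2.41, limma adjusted p = 1.61e-07), and its other probe set differed by −2.09 and −1.89. Between all neurons and trunk glra4a differed by −0.17 (limma adjusted p = 0.535). glra3, another glycine receptor gene, was higher than in trunk in V1 (1.21) and in all neurons (1.43), at a trunk mean of 4.33. The GABA receptor gene gabrb2a was also higher than in trunk in V1 (0.59, limma adjusted p = 0.029) and all neurons (0.54, limma adjusted p = 0.0483). Its groups overlapped in both comparisons, and its means of 4.93 in V1, 4.88 in all neurons and 4.34 in trunk lay below the median of all values.

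Genes whose pattern was most like that of each receptor gene were ranked by Pearson's r over the 15 arrays, among 5821 probe sets with 1 symbol and a mean at or above the median of all values. These are descriptions, since the arrays share 3 groups and all probe sets share the arrays. Nearest to chrna1 were mybphb (r = 0.996), a myosin binding protein gene, srl (0.996), whose product binds calcium in the sarcoplasmic reticulum, the alpha-actinin gene actn3b (0.995), the nebulin gene neb (0.994) and pdlim7 (0.994). Nearest to chrne were the Z-disc gene ldb3a (0.992), spryd4 (0.990), the actin-binding protein gene nexn (0.988), and the muscle RING-finger genes trim55b (0.988) and trim55a (0.985). Only their trunk arrays (means 8.98 and 8.40) made trim55b and trim55a candidates. Their means were 4.83 and 4.59 in V1 and 5.33 and 5.25 in all neurons, below the median, so their place here is no support for a shared pattern. The same holds for ldb3a, which also reached the cut only through its trunk arrays. Its means were 5.03 in V1, 5.64 in all neurons and 8.23 in trunk. chrna1 and chrne correlated with each other at r = 0.967. The nearest genes to chrnb3a were septin5a (0.985), the kinesin gene kif3a (0.980), the synaptic vesicle gene sypb (0.978), hoxa10b (0.977) and mffb (0.976), and its r was −0.74 with chrna1 and −0.83 with chrne.

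Each group's mean was then subtracted, so that differences between arrays of a group remained. For chrna1 and chrne these lay mostly in the split all-neuron group. The SD of chrna1 was 1.15 there, 0.44 in V1 and 0.34 in trunk arrays, and that of chrne 0.93, 0.48 and 0.30. On this measure chrna1 was nearest to gapdh (r = 0.973), mybphb (0.973), neb (0.970), srl (0.969) and ckmb (0.969). chrne was then nearest to ckma (0.947), tnni2b.1 (0.939), nexn (0.926), actn3b (0.926) and ldb3b (0.925), and chrna1 and chrne correlated at 0.848. chrnb3a was nearest to fbxw11b (0.930), ahcyl2b (0.927), irf2bpl (0.925), mtch2 (0.921) and smim10l3 (0.918). Only the all-neuron mean of smim10l3 (5.88) was above the median, with 5.49 in V1 and 5.32 in trunk. The r of chrnb3a with chrna1 and chrne was −0.53 and −0.58 on this measure. Of the genes nearest to chrna1 in this way 3 of 5 were on the muscle lists (neb, srl and ckmb), as were 3 of 5 for chrne (ckma, tnni2b.1 and ldb3b) and 0 of 5 for chrnb3a. By r over the arrays as they stand, it was 2 of 5 for chrna1 (srl and neb) and 0 of 5 for chrnb3a. For chrne it was 1 of 5, ldb3a, which only its trunk arrays made a candidate. Genes on these lists made up 39 of the 5821 candidates (0.67%).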

How the data were processed

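The authors deposited 1 log2 value per probe set and array for 15 Affymetrix arrays. The submitters' processing notes name RMA and Affymetrix Expression Console, and their log2 scale follows from the range of the values. For program versions, chip definition and build, "not given in the sources used here" applies. RNA went through repeated amplification before labelling, per the labels' protocols. RMA equalizes array distributions, so differences are relative.

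Of 15617 probe sets, 115 controls were set aside and 15502 tested, of which 10795 carried 1 platform symbol. One mean per group was estimated over the 15 arrays with limma 3.58.1 (R 4.3.3, lmFit and eBayes, default prior). Two-sided moderated p-values were adjusted by Benjamini-Hochberg over all tested probe sets per comparison, with a threshold of 0.05. A gene with several probe sets entered lists through the brightest. All listed receptor and acetylcholine genes could be named, and from other lists up to 4 genes per comparison with the largest called difference. The nearest 5 genes by correlation were also named. Members, lists, tests and alternatives were chosen with earlier results of these data known. The fit was tested on simulated data. The series design calls the replicates biological, the labels name no batch, and nothing says that arrays came from separate clutches, so p-values measure the spread between these arrays. Figures used matplotlib 3.10.9.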

Additional observations from a re-analysis of the deposited data

Results flagged for a closer look

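Single arrays stood far from the rest of their group in 7 of 63 combinations of a listed receptor or acetylcholine gene and a group, where chance alone gives about 1 in 20. None of the 7 was a value of chrna1, chrne or chrnb3a. In trunk array 2, rapsn read 6.26 against 5.35 to 5.43 on the other trunk arrays, and chrna7a read 4.13 against 3.81 to 3.84. In trunk array 1, unc50 read 7.53 against 6.93 on each of the others. V1 array 3 read 11.15 for slc18a3a, against 10.66 to 10.76 on the other V1 arrays, and V1 array 2 read 4.77 for sntb1, against 4.40 to 4.43. All-neuron array 5 read 4.91 for chrnb3b, against 4.67 to 4.72, and all-neuron array 1 read 4.30 for the GABA receptor gene gabrr2b, against 4.77 to 4.89.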

How the results depend on the processing

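Against trunk, chrna1, chrne and chrnb3a kept their direction and their call in all 153 combinations of gene and alternative setting, with adjusted p up to 3.24e-03. Some settings, here and between V1 and all neurons, could not change a difference, only its error or adjusted p. They changed the variance prior, left out dim probe sets, or left out arrays of the group not compared. Between V1 and all neurons 53 of 72 kept their direction and stayed called or uncalled as before. These include chrne, which was not called with all arrays as deposited. It stayed uncalled in the same direction in 12 of 15 settings without 1 array and in 5 of 9 others. Equal ribosomal protein means (chrne −1.47, adjusted p = 5.31e-04), the filter on dim probe sets (−0.91, adjusted p = 0.049) and array weights (−1.27, adjusted p = 5.70e-03) brought chrne past the threshold, and array weights ended the call of chrnb3a (−0.29, adjusted p = 0.123). The filter kept chrne only through its trunk mean of 9.58, as its V1 and all-neuron means (4.31 and 5.22) lay below the median. Its pass there is thus no support for a difference between V1 and all neurons. Without all-neuron arrays 1, 2 and 3, chrna1 was −0.092 and no longer called, and chrne was 0.094, the opposite direction. These arrays were the brightest of their group for both genes, so this setting is no separate test. Leaving out single arrays gave −1.66 to −1.03 for chrna1, −1.22 to −0.73 for chrne, which passed when the all-neuron array 4, the all-neuron array 5 or the V1 array 1 was missing, and −0.56 to −0.41 for chrnb3a. Equal ribosomal protein means shifted the median of all probe sets to −0.56 between V1 and all neurons, where 12198 probe sets were called (512 higher, 11686 lower) instead of 3408 (1966 and 1442), and 20 listed genes instead of 4. Between all neurons and trunk that median became 0.44, with 9858 probe sets called (8588 higher, 1270 lower) instead of 6415 (3219 and 3196), and 14 listed genes instead of 9. Relative to the median of all probe sets, chrna1 stood at −1.32, chrne at −0.90 and chrnb3a at −0.48 between V1 and all neurons, with or without this setting. It moves all probe sets of an array alike, so these relative values could not change and test nothing. Deviations of same-numbered arrays from their group means correlated at r −0.13 to 0.36 over 13 pairs, 4 above 0.1. Differently numbered arrays were not compared in this way. The numbers are not stated to pair arrays, so they were not read as pairs. With a fixed replicate block chrna1 differed by −1.24, chrne by −0.83 and chrnb3a by −0.56 between V1 and all neurons, with 3014 probe sets called and no change of call for these 3 genes. Levels of chrna1 and chrne in V1 arrays lie below the median of all values except chrna1 on array 1, and without detection calls their distance from background is not known.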
